A study of Homo sapiens with 5 samples.

Results

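The genes of Polycomb repressive complex 2 (PRC2) were examined for binding of the transcription factors Fra-1, MYC and E2F1 in breast cancer cells. The 10 genes were EZH2, EZH1, SUZ12, EED, RBBP4, RBBP7, JARID2, MTF2, PHF1 and PHF19, chosen by name for their role in the complex and not by any measured value, out of 20098 protein-coding genes. Earlier results of these data were known when the 10 genes were chosen. For each gene, peaks were collected in promoters (2 kb upstream to 2.5 kb downstream of any annotated transcription start site, TSS), in the rest of the gene body, and in the 10 kb flanks on either side. Chromatin immunoprecipitation and sequencing (ChIP-Seq) was done in untreated MDA-MB-231 LM2 cells, which were selected from MDA-MB-231 breast cancer cells for spread to the lung. The labels give the cells as untreated, whereas the study also mentions cells carrying a control vector in connection with ChIP-Seq. There was 1 library each for Fra-1 (the FOSL1 protein, Santa Cruz antibody), MYC (c-Myc, Santa Cruz antibody) and E2F1 (Millipore antibody), all called against the same input DNA from these cells. An EZH2 ChIP library is among the samples, and for it no peak list was used here, so the values below concern factors bound at the EZH2 gene and not the EZH2 protein on chromatin. With 1 library for each factor there was no replicate spread and no test between factors or genes, and every interval below covers counting error only.

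PRC2 is the enzyme complex that methylates histone H3 on lysine residue K27, a mark of silent developmental genes. EZH2 or EZH1 carries the catalytic domain, SUZ12 and EED are needed for activity, the histone-binding proteins RBBP4 and RBBP7 complete the core, and accessory subunits such as JARID2, MTF2, PHF1 and PHF19 guide the complex to chromatin. EZH2 is often abundant in aggressive breast cancers and in dividing cells, and E2F factors are known regulators of EZH2 and EED.

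The Fra-1 list held 17320 peaks, the MYC list 4867 and the E2F1 list 36933. After MACS2 kept 1 tag per position, the libraries held between 12931227 tags (Fra-1) and 23853621 tags (MYC), and the input held 10758036. The values given for a peak are its pileup (the scaled number of fragments over the summit), its fold enrichment over the local background from the input, and its −log10 q. List length and depth differed between factors, so fold enrichment was compared within a list only.

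Short stretches of sequence show where known motifs lay under the member peaks (GRCh37, read 5′ to 3′ on the strand of the gene). The E2F motif was searched as TTTCCCGC, TTTCGCGC, TTTGCCGC and TTTGGCGC, the E-box of MYC as CACGTG, and the AP-1 motif of Fra-1 as TGACTCA or TGAGTCA, which are reverse complements of each other, on both strands and within 50 bp of summits. An E2F motif lay near the summit of 2 of the 30 E2F1 promoter peaks of the PRC2 genes, and these 2 places are shown with the motif in capitals, as 30 bases centred on the motif, without the summit itself, because they reach into first exons. The other stretches were chosen after their values were seen: an E-box and an AP-1 motif, each under an E2F1 summit (motif in capitals, with 50 bp on either side of the summit), the region of PHF19 where all 3 factors overlapped (overlap in capitals), and a peak of Fra-1 within JARID2 (AP-1 motif in capitals). The strongest E2F1 promoter peak of EZH2, which held none of these motifs, is shown beside them.
EZH2 start site, E2F1 peak, chr7:148581364-148581393, minus strand: gggctgccgcgTTTGGCGCtcggtccggtc
MTF2 start site, E2F1 peak, chr1:93544834-93544863, plus strand: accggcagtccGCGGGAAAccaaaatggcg
EZH2 strongest E2F1 promoter peak, chr7:148581844-148581944, minus strand: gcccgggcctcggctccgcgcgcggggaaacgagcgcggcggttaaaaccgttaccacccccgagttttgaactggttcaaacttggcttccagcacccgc
EZH2 upstream E2F1 peak, chr7:148582440-148582540, minus strand: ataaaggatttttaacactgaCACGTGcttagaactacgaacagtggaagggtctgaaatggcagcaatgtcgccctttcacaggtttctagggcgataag
RBBP7 upstream E2F1 peak, chrX:16889260-16889360, minus strand: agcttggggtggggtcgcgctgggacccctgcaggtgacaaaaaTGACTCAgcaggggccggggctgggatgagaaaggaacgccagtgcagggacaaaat
PHF19 region of all 3 factors, chr9:123638930-123639080, minus strand: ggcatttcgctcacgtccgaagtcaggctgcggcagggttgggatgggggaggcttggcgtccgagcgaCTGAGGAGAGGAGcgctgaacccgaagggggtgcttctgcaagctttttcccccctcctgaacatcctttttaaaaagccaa
JARID2 intronic Fra-1 peak, chr6:15418198-15418426, plus strand: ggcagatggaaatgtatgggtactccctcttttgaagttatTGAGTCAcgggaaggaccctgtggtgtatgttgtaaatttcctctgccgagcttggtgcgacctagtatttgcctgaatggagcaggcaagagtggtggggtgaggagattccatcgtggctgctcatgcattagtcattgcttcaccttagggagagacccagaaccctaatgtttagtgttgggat

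Most PRC2 genes had an E2F1 peak at their promoter, some also had a MYC peak, and PHF19 alone had a Fra-1 peak there. E2F1 had a promoter peak at 9 of the 10 genes, all except PHF1, against 61.3% of all protein-coding genes. MYC had a promoter peak at 4 genes (EED, RBBP4, JARID2 and PHF19), against 17.8% of all genes. Fra-1 had a promoter peak at 1 gene, PHF19, against 13.2% of all genes. In all, 47 peaks fell in or near these genes, of which 37 were E2F1, 6 MYC and 4 Fra-1 peaks. The 6 MYC peaks all lay in promoters, as did 30 of the 37 E2F1 peaks. Of the 4 Fra-1 peaks, 3 lay in annotated gene bodies outside promoters, and that of EED among these lay upstream of the canonical start site. The PRC2 genes had more annotated start sites than most genes (median 12, range 3 to 19, against a median of 5), which widens the promoter area searched. With 1 canonical start site per gene, the same 9, 4 and 1 genes had a promoter peak, against 57.3%, 15.8% and 7.2% of all genes.

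**Figure D1:**
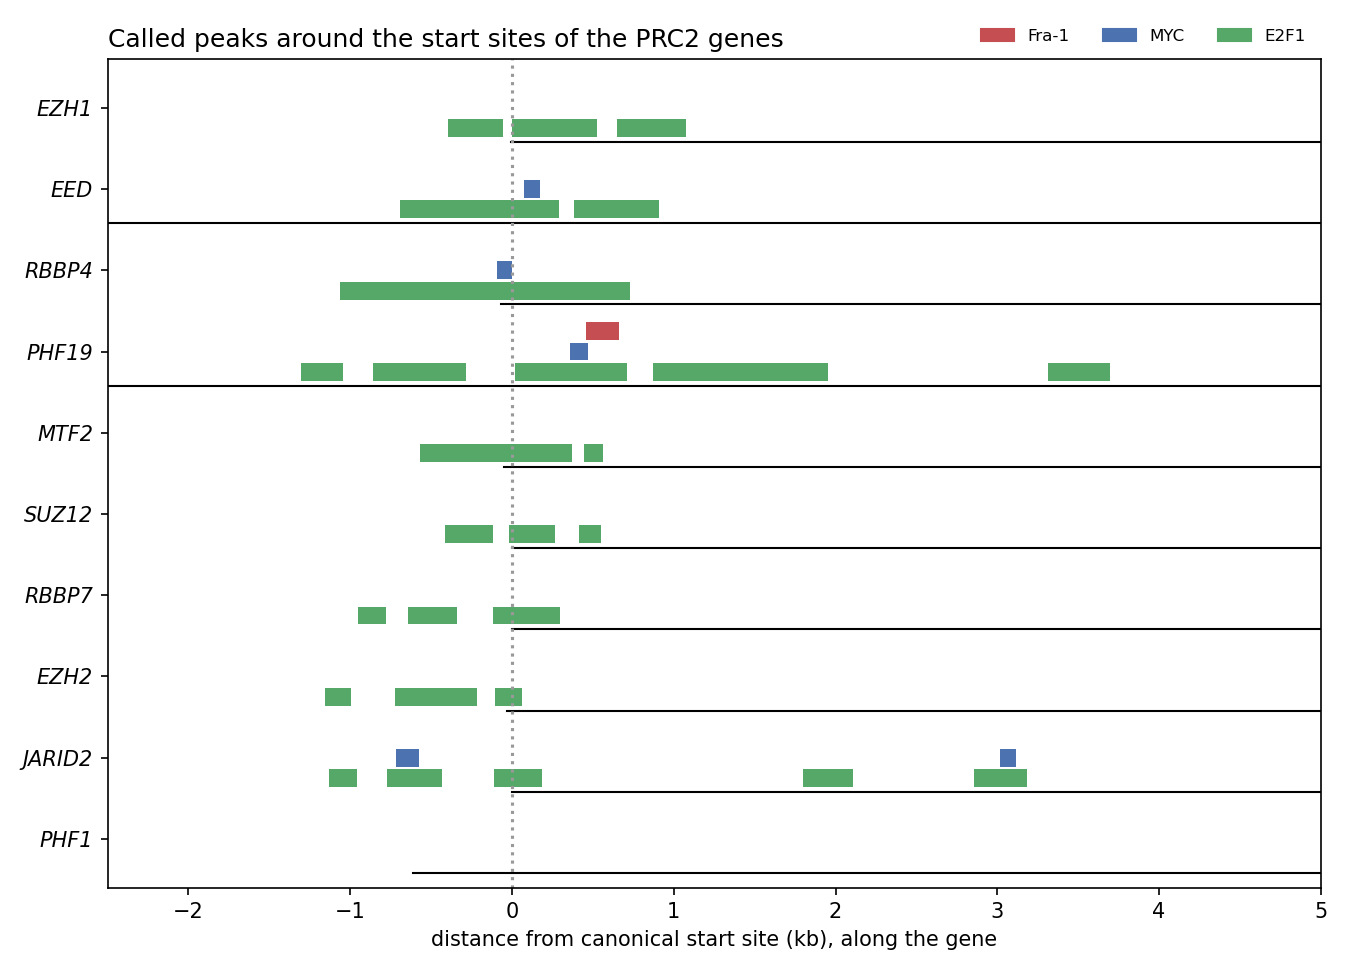
Called peaks of Fra-1 (red), MYC (blue) and E2F1 (green) between 2.5 kb upstream and 5 kb downstream of the canonical start site of each PRC2 gene, drawn to scale, with the horizontal axis in kb along the direction of transcription and the black line marking the annotated gene. E2F1 peaks lie at or next to the start site of 9 genes, the MYC peaks overlap E2F1 peaks, and PHF1 has no peak.

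The E2F1 peaks differed in strength from gene to gene. Fold enrichment of the strongest E2F1 promoter peak ran from 16.7 at JARID2 to 52 at EZH1, with a median of 34.4 over the 9 genes. Over all 12321 genes with an E2F1 promoter peak the median was 22 and the quartiles were 13.4 and 32.5, and 8 of the 9 PRC2 genes were above that median. EZH1, EED, RBBP4 and PHF19 formed the upper end, and JARID2 was the only one of the 9 below the median of all genes. In this order no neighbouring genes had 95% Poisson intervals that were apart (0 of 8 neighbouring pairs), while 20 of all 36 pairs did. By counting error at the summits alone, with the background held fixed, the ends of the order were thus apart and neighbouring genes were not. Error in the background is left out. EZH1 stood apart from and above MTF2 and SUZ12 in fold enrichment, but had a lower pileup (74 against 95 and 83).

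**Figure D2:**
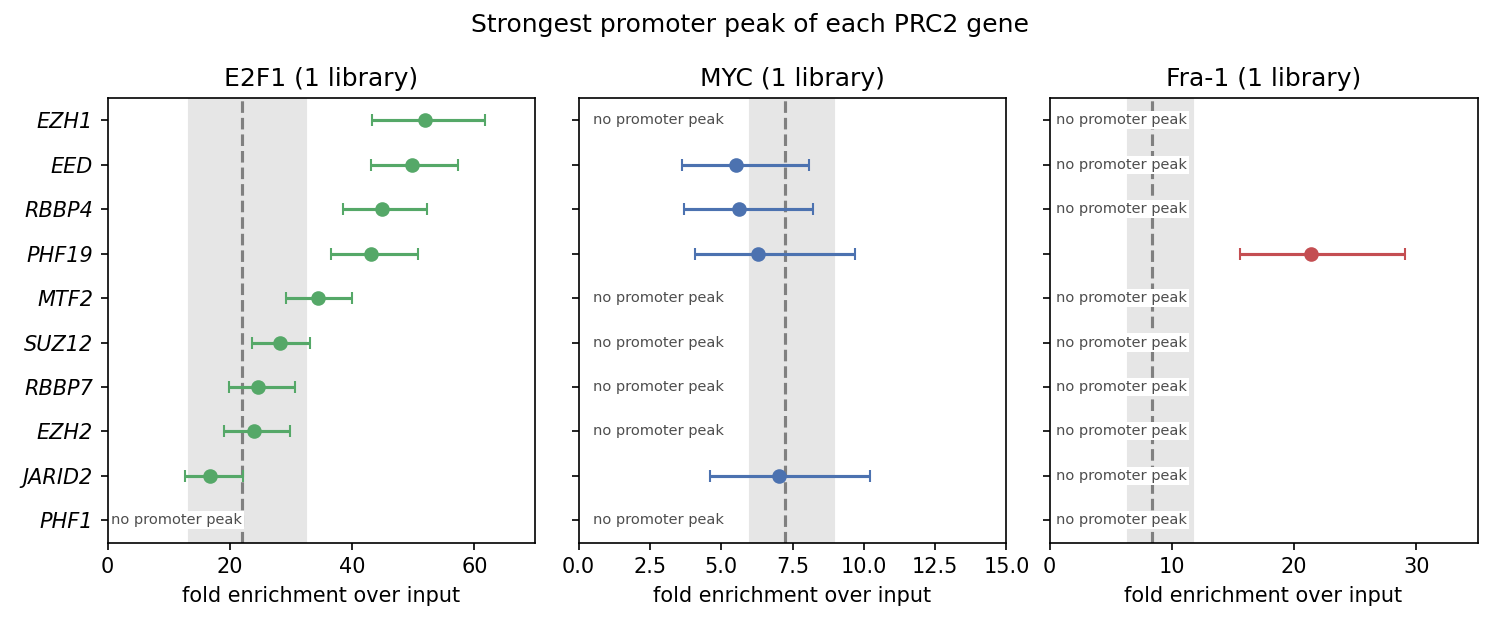
Fold enrichment over input (horizontal axis, linear, a different range for each factor) of the strongest promoter peak of each PRC2 gene in the E2F1, MYC and Fra-1 lists, with 1 library per factor. Bars are 95% Poisson intervals of the fragments at the summit, the dashed line is the median over all protein-coding genes with a promoter peak of that factor, and the grey band runs between the quartiles of those genes. E2F1 values run from 16.7 to 52, the 4 MYC values lie below the MYC median of 7.22, and the single Fra-1 value of 21.4 at PHF19 lies above the band.

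EZH2, the main catalytic subunit, is a 77.1 kb gene on the minus strand of chromosome 7 (148504349 to 148581413). It had 3 E2F1 promoter peaks and no peak of MYC or Fra-1 in its promoters, body or flanks. The strongest lay at 148581598 to 148582104, with its summit 511 bp upstream of the canonical start site, a pileup of 46, a fold enrichment of 24.02 (95% interval 19 to 29.8) and a −log10 q of 56.95. This was close to the middle of all E2F1-bound genes (percentile 55.3). A weaker peak covered the start site itself, with a summit 13 bp upstream of it and a fold enrichment of 21.61 (17 to 27.3). That peak held the E2F motif TTTGGCGC, centred 18 bp from the summit, in the first EZH2 sequence shown above. A further peak of fold enrichment 7.948 (5.13 to 11.4) had its summit 1107 bp upstream, and an E-box centred 26 bp from that summit, although MYC had no called peak there. The letters CACGTG occurred within 50 bp of the summit in 2.87% of all 25089 E2F1 promoter peaks.

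EZH1, the alternative catalytic subunit and the one typical of cells that no longer divide, lies on the minus strand of chromosome 17 (40852293 to 40897067). It had 3 E2F1 promoter peaks and no MYC or Fra-1 peak. Its strongest peak covered the start site, with the summit in the first intron, 133 bp downstream of the start site, a pileup of 74 and a fold enrichment of 51.96 (43.3 to 61.7). This was the highest fold enrichment among the PRC2 genes (percentile 95.7 of all E2F1-bound genes). By pileup, however, EZH1 was 6th of the 9, and its local background from the input was the lowest under any of these 9 peaks (0.443 scaled fragments against 1.99 at SUZ12). The other EZH1 peaks had fold enrichments of 38.02 (30.9 to 46.7), 175 bp upstream of the start site, and 3.894 (2.68 to 5.43), in the first intron. Thus the catalytic pair both had E2F1 at the start site, and the intervals of their strongest peaks were apart.

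SUZ12, the scaffold of the core, lies on the plus strand of chromosome 17 (30264026 to 30328057) and had 3 E2F1 promoter peaks and no MYC or Fra-1 peak. The strongest had its summit 296 bp upstream of the start site, a pileup of 83 and a fold enrichment of 28.14 (23.7 to 33.1). Another summit lay in the 5′ UTR of exon 1 (fold enrichment 20.3, 15.3 to 26.1) and another in the coding part of exon 1 (6.973, 4.37 to 10.9). In the downstream flank, 2 further E2F1 peaks with fold enrichments of 14.8 (11 to 19.5) and 8.037 (5.12 to 12) lay in promoter windows of the neighbouring gene LRRC37B. SUZ12 has a partial copy, SUZ12P1, on the same chromosome, and the copy carried its own E2F1 promoter peak at 29058250 to 29058551, with a fold enrichment of 37.4 and a pileup of 60. The authors kept uniquely mapping reads only, so reads that fit both copies equally well are missing from either value.

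EED, which binds methylated H3 and stimulates the enzyme, lies on the plus strand of chromosome 11 (85912254 to 85989855). Its 980 bp E2F1 peak over the canonical start site had the largest pileup of all PRC2 peaks (113, or 190 fragments before scaling), a fold enrichment of 49.77 (43.1 to 57.4) and the largest −log10 q (169.2). A second E2F1 peak, with its summit in the coding part of exon 1, had a fold enrichment of 36.31 (30.7 to 42.8). A MYC peak with a fold enrichment of 5.535 (3.63 to 8.06) lay entirely within the larger E2F1 peak, and the summits of these 2 peaks were 2 bp apart, in the 5′ UTR of exon 1. The promoter is shared with a lncRNA, ENSG00000288809, on the other strand, with start sites 77 bp apart. Longer EED transcripts start far upstream, and 1332 and 1814 bp downstream of their start lay 2 weaker E2F1 peaks (fold enrichments 9.642 and 5.22). Between these and the canonical start site lay a Fra-1 peak of fold enrichment 5.896 (3.3 to 9.88), 15817 bp upstream of the latter. The 2 flank peaks of EED had fold enrichments of 3.377 and 2.806, the lowest E2F1 values near any PRC2 gene, over the highest local background (5.81 and 6.84 fragments).

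RBBP4, a WD-repeat histone-binding protein that PRC2 shares with other chromatin complexes, lies on the plus strand of chromosome 1 (33116743 to 33151812). It had 1 broad E2F1 peak of 1796 bp over the start site, with a pileup of 100 and a fold enrichment of 44.95 (38.5 to 52.3). A MYC peak of 93 bp with a fold enrichment of 5.636 (3.7 to 8.21) lay inside it, with the summits 5 bp apart. The start site of ZBTB8OS on the other strand was 239 bp from an RBBP4 start site, so both peaks belong equally to the promoter of that gene. The 7 annotated RBBP4 pseudogenes carried no promoter peak of any factor.

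RBBP7, the close relative of RBBP4, lies on the minus strand of chromosome X (16857406 to 16888485) and had 3 E2F1 peaks and no peak of MYC or Fra-1. The strongest covered the start site, with a summit in the 5′ UTR of exon 1, a pileup of 48 and a fold enrichment of 24.63 (19.8 to 30.7). The intervals of RBBP4 and RBBP7 were apart, with RBBP4 higher. The other RBBP7 peaks, 451 and 825 bp upstream, had fold enrichments of 10.63 and 6.431. The farther of these had an AP-1 motif centred 3 bp from its E2F1 summit (the RBBP7 sequence above), while Fra-1 had no called peak at the gene. An AP-1 motif lay within 50 bp of 5.56% of all E2F1 promoter summits.

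JARID2, the subunit that recruits PRC2 and stimulates it in early development, is the longest of the 10 genes (276 kb, chromosome 6, 15246300 to 15522273, plus strand). It had 5 E2F1 promoter peaks, all of them modest, with fold enrichments of 16.73 (12.6 to 22.1), 11.82 (8.49 to 16.1), 11.27 (8.25 to 15.1), 10.52 (7.34 to 15.1) and 6.977 (4.59 to 10.4). Its strongest E2F1 peak was the weakest among the 9 E2F1-bound genes (percentile 35), while its E2F1 peaks together covered 1438 bp, at percentile 78 of the E2F1-bound genes. JARID2 also had 2 MYC promoter peaks, 666 bp upstream of the canonical start site (fold enrichment 6.276, 4.09 to 9.37) and 3063 bp downstream of it (7.018, 4.61 to 10.2). The latter lay near the start of a shorter JARID2 transcript, and was the strongest MYC peak at a PRC2 gene. Both lay within E2F1 peaks, with summits 7 and 98 bp apart. The antisense lncRNA JARID2-AS1 starts 221 bp from a JARID2 start site.

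JARID2 held 4 of the 6 peaks found in gene bodies. Fra-1 bound in intron 1, 38874 bp into the gene (fold enrichment 5.325, 3.28 to 8.39), and in intron 3, 172038 bp into the gene (8.187, 6.08 to 10.8). E2F1 bound in intron 1, 53925 bp into the gene (6.16, 3.78 to 9.21), and in intron 3 at the Fra-1 site (4.371, 3.13 to 6.1), with summits 13 bp apart. The local background was raised at both intron 3 peaks (3.89 for Fra-1 and 3.8 for E2F1, against 1.82 and 0.948 in intron 1). The E2F1 peak in intron 3 was at percentile 6.14 of its list. The intron 3 peak of Fra-1 is the JARID2 sequence above, and its AP-1 motif TGAGTCA was centred 96 bp from the summit. Per Mb of gene body JARID2 held 7.25 peaks of each of these factors, from 2 peaks each, against 5.33 of Fra-1 and 5.87 of E2F1 over all protein-coding genes. Over the 10 PRC2 genes the density was 4.22 per Mb for Fra-1 and 4.22 for E2F1, from 3 peaks each, which was below the values over all genes.

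MTF2, a Polycomb-like protein that brings PRC2 to CpG-rich DNA, lies on the plus strand of chromosome 1 (93544792 to 93604636). It had 2 E2F1 promoter peaks and no peak of MYC or Fra-1. The main peak spanned 942 bp over the start site, with a summit 12 bp upstream of it, a pileup of 95 and a fold enrichment of 34.41 (29.2 to 40). An E2F motif (TTTCCCGC, on the minus strand, hence GCGGGAAA in the MTF2 sequence above) was centred 20 bp from that summit. The other peak, in the first intron, had a fold enrichment of 3.676 (2.42 to 5.47).

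PHF19, the Polycomb-like protein that reads methylated lysine K36 of H3, had 10 of the 47 peaks, next to the 11 of the much longer JARID2, and was the only PRC2 gene with promoter peaks of all 3 factors. It lies on the minus strand of chromosome 9 (123617929 to 123657174). The main E2F1 peak, at 123638753 to 123639450 with its summit in the first intron, had a pileup of 85 and a fold enrichment of 43.1 (36.5 to 50.8). Next to it lay E2F1 peaks with fold enrichments of 29.1 (23.7 to 35.5) and 24.71 (20.3 to 30). The 6 E2F1 promoter peaks, collected over the 13 start sites of the gene, together covered 3267 bp (percentile 97.2 of the E2F1-bound genes). The Fra-1 promoter peak, at 123638802 to 123639011, had a pileup of 33, a fold enrichment of 21.39 (15.6 to 29.1) and a −log10 q of 41.84. Among the 2662 genes with a Fra-1 promoter peak, where the median was 8.38, this value stood at percentile 96. The MYC peak at the same place, 123638999 to 123639105, was weak in comparison with the other MYC-bound genes (6.303, 4.07 to 9.69, percentile 29.7).

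The Fra-1 and E2F1 summits at PHF19 were 5 bp apart, and the whole 210 bp Fra-1 peak lay within the E2F1 peak. The MYC summit was 128 bp from the E2F1 summit and 133 bp from the Fra-1 summit. All 3 peaks had only 13 bp in common (chr9:123638999-123639011, in capitals in the PHF19 sequence above), so the overlap of all 3 rests on the edges of the MYC and Fra-1 peaks. No AP-1 motif lay within 100 bp of the Fra-1 summit at PHF19, whereas 57.8% of all 4567 Fra-1 promoter peaks had one. Further into the gene, 278 bp upstream of the start of a shorter transcript, a MYC peak with a fold enrichment of 5.309 (3.13 to 8.36) overlapped an E2F1 peak with a fold enrichment of 17.74 (13.2 to 23.8) in exon 6, with summits 16 bp apart. An E2F1 peak outside the promoter windows, in intron 3, had a fold enrichment of 4.671 (2.66 to 7.39).

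**Figure D3:**
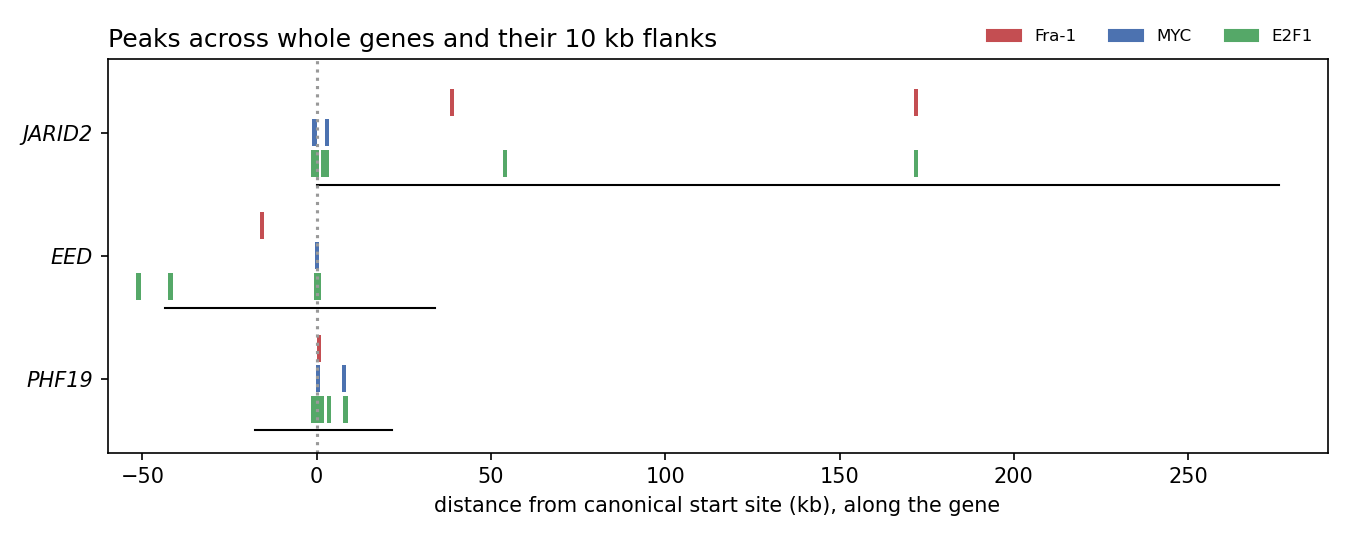
Peaks of Fra-1 (red), MYC (blue) and E2F1 (green) across JARID2, EED and PHF19, the 3 PRC2 genes with a Fra-1 peak, against the distance from the canonical start site in kb along the direction of transcription (black line, annotated gene). Peaks narrower than 1.2 kb are drawn 1.2 kb wide. The Fra-1 peaks of JARID2 and EED lie 38874, 172038 and 15817 bp from the start site, and that of PHF19 lies next to it.

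PHF1, another Polycomb-like protein, had no peak of any factor, but its locus could not be read as unbound. It is a short gene on chromosome 6 (33378176 to 33384230, plus strand), and it lay in a stretch of 5.13 Mb (28411450 to 33538873) in which none of the 3 lists had a single peak. The stretch held 184 protein-coding genes, the most of any stretch without peaks, against 62 in the next (on chromosome 11) and 39 in the one after that (on chromosome 1). The nearest peaks were 4967 kb to the left and 155 kb to the right of PHF1, and E2F1 peaks were dense on both sides. The stretch corresponds to the major histocompatibility complex and its surroundings, for which hg19 carries alternative haplotype sequences beside chromosome 6. The lists held 18 E2F1 peaks on 6 of these haplotype sequences, 1 MYC peak and no Fra-1 peak there. Whether reads from the stretch were lost because they also mapped to the haplotype sequences was not tested. The PRC1 gene RING1 lay in the same stretch and likewise had no peak.

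**Figure D4:**
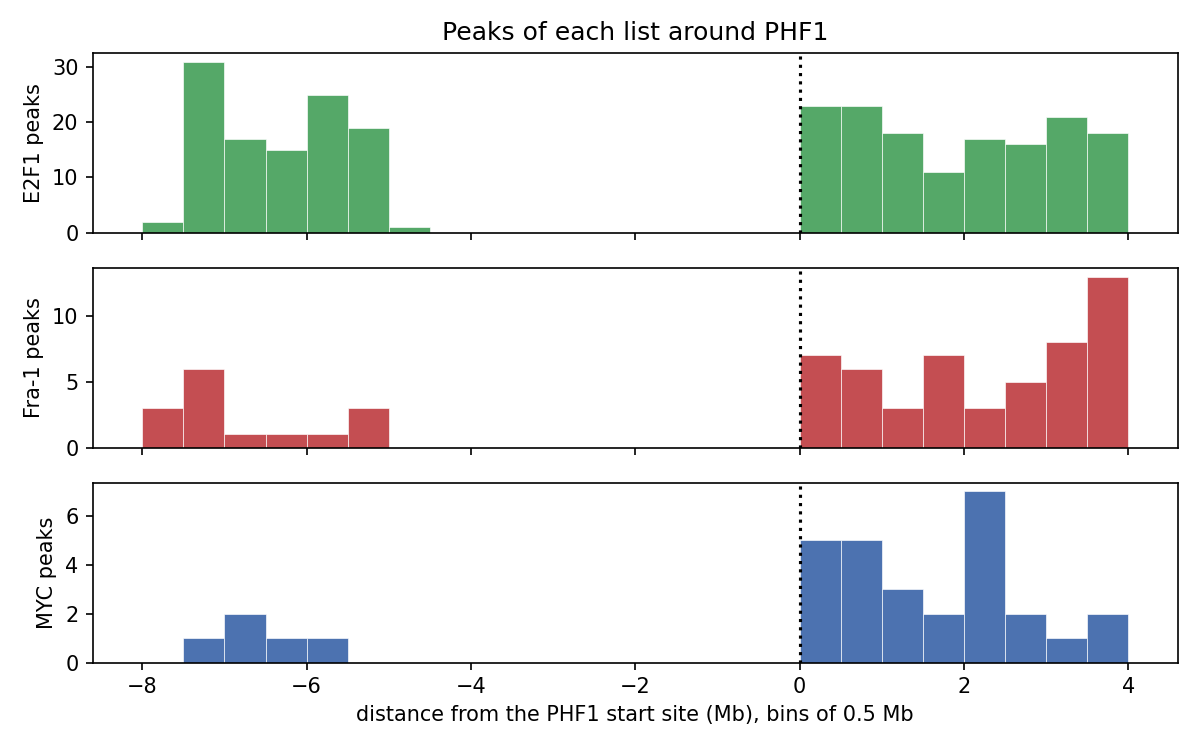
Number of E2F1, Fra-1 and MYC peaks (vertical axes, linear, a different range for each factor) in bins of 0.5 Mb against the distance in Mb from the PHF1 start site (dotted line). None of the 3 lists has a peak in the 5.13 Mb that hold PHF1, while each has peaks on both sides.

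The MYC peaks at the PRC2 genes ran from percentile 14.3 (PHF19) to percentile 57.1 (JARID2) of fold enrichment among all peaks of the MYC list. The 4 strongest per gene had fold enrichments between 5.53 and 7.02, all below the median of 7.22 over the 3587 genes with a MYC promoter peak, and none of the 6 pairs had intervals that were apart. None of the 6 MYC promoter peaks had an E-box within 100 bp of the summit, against 22.8% of all 4162 MYC promoter peaks. Each of the 6 MYC peaks overlapped an E2F1 peak, so that 4 genes had overlapping MYC and E2F1 promoter peaks, against 17.6% of all genes. Such overlap was the rule for MYC promoters in general (3533 genes of the 3587). Summits of the 6 MYC and E2F1 pairs were 2, 5, 7, 16, 98 and 128 bp apart, so that 4 of them were within 20 bp, as were 17.5% of the 3825 overlapping MYC and E2F1 promoter regions (median 83 bp).

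Overlapping promoter peaks of Fra-1 and E2F1, of MYC and Fra-1, and of all 3 factors were each found at PHF19 alone. Over all protein-coding genes these overlaps occurred at 10.7%, 2.9% and 2.89%, respectively. In the gene body outside promoters, E2F1 had peaks at 2 genes (JARID2 and PHF19; 17.8% of all genes), Fra-1 at 2 (EED and JARID2; 17.3%) and MYC at 0 (2.44%). In the 10 kb flanks, E2F1 had peaks at 2 genes (SUZ12 and EED; 30% of all genes), and Fra-1 and MYC at 0 (12.2% and 8.39%). With 10 genes and 1 library per factor, none of these counts, nor those at promoters, was tested against the share over all genes.

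The E2F1 sites of the PRC2 genes lay close to start sites in GC-rich DNA, like those of other genes. The summit of the strongest peak lay a median of 108 bp from a start site of the gene, against 90 bp over all E2F1-bound genes, and the sequence within 50 bp of it had a median GC content of 65.3%, against 64.4%. The number of E2F1 promoter peaks per bound gene was 1 to 6 with a median of 3, against a median of 2. More promoter area was searched at the PRC2 genes, with a median of 12 start sites against 5. The E2F motif lay within 50 bp of 2 of the 30 summits of the PRC2 genes, against 2.1% of all E2F1 promoter peaks, and within 100 bp of 3 of the 30 (at EZH1, EZH2 and MTF2), against 3.42%. Farther from the summit, the strongest E2F1 peaks of SUZ12 and EED also held the motif, and no share over all peaks was counted for that. These few peaks were not tested against the whole list.

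Other Polycomb genes were counted beside the PRC2 genes, without a test. Of 30 further genes, E2F1 had a promoter peak at 25 (83.3%, against 61.3% of all genes), MYC at 8 (26.7%, against 17.8%) and Fra-1 at 6 (20%, against 13.2%). Among 20 genes of the sister complex PRC1, which ubiquitinates histone H2A, these numbers were 17, 3 and 4. Among 4 further PRC2 partners (AEBP2, EPOP, LCOR and EZHIP) they were 3, 2 and 0, among the 2 demethylases of H3K27 they were 2, 1 and 1, and among 4 genes of the H2A deubiquitinase they were 3, 2 and 1. Promoter peaks of all 3 factors, overlapping or not, were found at PHF19 among the PRC2 genes and at 4 of these 30, against 4.67% of all genes. The peaks of all 3 overlapped in the same place, as they did at PHF19, at 2 of the 4. PCGF1, a subunit of variant PRC1, had highest fold enrichments of 46.2 for E2F1, 7.65 for MYC and 10.5 for Fra-1. PHC2, a PRC1 subunit that forms polymers, had 24.4, 6.81 and 6.94, KDM6B, a demethylase of H3K27, had 17.6, 11.2 and 9.76, and ASXL1, a cofactor of the deubiquitinase BAP1, had 36.9, 7.62 and 5.05, in the same order of factors. The Fra-1 value at PHF19 was above all 4 of these.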

How the data were processed

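The analysis began from 1 list of called peaks per factor. Before that, the authors had trimmed with Trimmomatic 0.27, mapped uniquely to a masked hg19 genome with Bowtie 0.12.5, removed duplicates with Picard, and called peaks with MACS2 2.0.10 at a q-value cutoff of 0.01 (tool names and versions from the submitters' processing notes and the study's methods). The deposited signal is the pileup at the summit, scaled to the smaller library, in whole numbers. Fold enrichment, as deposited, is a ratio, the pileup plus 1 over the local input background plus 1. Significance was deposited as −log10 of p- and q-values. The background given here was recovered from pileup and fold enrichment and is approximate.

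Peaks on chromosomes 1 to 22 and X (59069) were assigned to GENCODE 44 genes mapped to GRCh37 by an overlap of at least 1 bp, first to promoters, then to gene bodies, then to flanks. All peaks fell within the chromosome ends of GRCh37. The canonical transcript gave exon and intron positions. Intervals are exact 95% Poisson intervals of the unscaled fragments at a summit, carried over to the fold enrichment with the background held fixed. Percentiles count genes at or below a value, and where given for a list they count its peaks. No test was possible with 1 library per factor. Sequences were read from the GRCh37 genome.

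The 10 genes and the gene lists were chosen with earlier results of these data known. All 10 were described. Other Polycomb genes were given by counts and named where all 3 factors had promoter peaks, and further genes where a start site lay within 1 kb of one of the 10. LRRC37B and SUZ12P1 were named after their values were seen. Sequences with a factor's own motif, and the strongest E2F1 peak of EZH2, were shown by the same rule, which gave 50 bp on either side of the summit, or, where an exon was reached, 30 bases centred on the motif. Alternatives were a −log10 q or fold enrichment of at least 5, equal list sizes, other start sites, windows and flanks, assignment by summit, stricter overlap, and wider motif windows. Calculations ran in Python 3.11.15 with pysam 0.24.0, scipy 1.17.1, pandas 2.3.3, numpy 2.4.6 and matplotlib 3.10.9. On simulated data, 500 of 500 planted promoter peaks and 300 of 300 planted motifs were found.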

Additional observations from a re-analysis of the deposited data

How the results depend on the processing

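Of 70 alternative values, 53 stayed within 1.5 times the reported count and 17 fell further. The 53 are no measure of stability. They include smaller falls, counts of 0 under settings that could only remove peaks, and MYC counts under equal list length. The E2F1 promoter count was 9 under 6 of its 7 alternatives, against 57.3% to 61.1% of all genes. With lists of equal length it was 6 (without EZH2, RBBP7 and JARID2), against 25.7% of all genes. The Fra-1 promoter count stayed at 1 under all 7, against 3.43% (equal list length) to 13% (assignment by summit) of all genes. The MYC promoter count rested on weak peaks. At a −log10 q of at least 5 it fell from 4 to 1 (JARID2), against 12.7% of all genes. It stayed at 4 under the other 6, against 15.8% to 17.8% of all genes. Of these 6, equal list length left the MYC list unchanged at 4857 peaks, so that count could not differ. At that −log10 q threshold, genes with overlapping MYC and E2F1 promoter peaks fell to 1, against 12.5% of all genes. Genes with overlapping MYC and Fra-1 peaks and with all 3 factors fell to 0, against 1.8% and 1.78%. Fra-1 body, E2F1 body and E2F1 flank counts fell to 1 each, against 16.6%, 16.6% and 28.9%. A fold enrichment of at least 5 left 1 gene each for E2F1 bodies and flanks, against 15.9% and 28.6% of all genes. Lists of equal length left 0 genes for Fra-1 bodies, E2F1 bodies and E2F1 flanks, against 7.19%, 1.88% and 10.3% of all genes. With 5 kb flanks, 0 genes had an E2F1 flank peak, against 17.4% of all genes. When peaks had to cover 50% of each other, overlaps of MYC and E2F1, Fra-1 and E2F1, MYC and Fra-1, and all 3 each fell to 0 genes. Over all genes these shares were then 3.41%, 4.66%, 1.66% and 0.169%. The MYC peaks and the PHF19 Fra-1 peak lay inside broader E2F1 peaks, and the MYC and Fra-1 peaks at PHF19 shared 13 bp. Ordered by −log10 q, 6 of the 9 E2F1-bound genes and all 4 MYC-bound genes kept their place, and EED, RBBP4 and EZH1 were the first 3 for E2F1. No paired analysis was possible because each factor had 1 library. The shallow input limits the precision of the background at every peak, and the absence of a called peak does not show absence of binding.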
